A study of Mus musculus with 15 samples.

Results

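Lilrb4a and the genes that work with it were followed through the thalamus of 4 mouse genotypes. The set holds 6 of the 29659 genes measured, taken by name: the inhibitory receptor Lilrb4a, its neighbouring paralog Lilr4b, the related receptor Pirb, and the phosphatase genes Ptpn6 (SHP-1), Ptpn11 (SHP-2) and Inpp5d (SHIP1). Bulk RNA-seq covered 15 libraries. The 5EL mice (n = 5) carried the 5xFAD amyloid transgenes with homozygous human APOE4 and intact Lilrb4a (5xFAD/APOE4+/+/Lilrb4a+/+), and the 5ELKO mice (n = 4) had the same background without Lilrb4a (5xFAD/APOE4+/+/Lilrb4a-/-). The EL mice (n = 3) were APOE4 knock-in animals with intact Lilrb4a, and the ELKO mice (n = 3) were APOE4+/+/Lilrb4a-/-, neither with 5xFAD. Tissue was taken at an age of 4.5 months in all 4 groups, and the label or methods give human APOE4, knocked in, for each of them, although mouse Apoe in 1 ELKO library went against this (given with the libraries that stood apart). The 5xFAD transgenes are driven by the neuronal Thy1 promoter. Lilrb4a was deleted in the whole animal and not in microglia alone, and the exons removed are not given in the sources used here. The labels give separate samples but do not say that each came from its own animal, so p-values measure the spread between these samples. The comparison of 5ELKO with 5EL addresses what loss of Lilrb4a does under amyloid and APOE4, and EL and ELKO give the same comparison without amyloid.

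Lilrb4a, the mouse counterpart of human LILRB4, is an immunoglobulin-like receptor of myeloid cells. Its cytoplasmic tail carries immunoreceptor tyrosine-based inhibitory motifs (ITIMs). Src family kinases phosphorylate these tyrosines, and the phosphorylated motifs recruit phosphatases that dampen activating signals. SHP-1 and SHP-2 remove phosphate from tyrosines of proteins, whereas SHIP1 removes it from the membrane lipid PIP3. In the brain, Lilrb4a is known as a gene of microglia near amyloid plaques, SHP-1 and SHIP1 are enriched in microglia, and SHP-2 is made by most cell types.

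Lilrb4a and Lilr4b lie side by side on the plus strand of chromosome 10. Lilrb4a spans chr10:51490956-51496611 and Lilr4b spans chr10:51480632-51486703 (GRCm38, GENCODE M21), 4253 bases apart. Pirb lies at chr7:3711409-3720391, Ptpn6 at chr6:124720707-124738714, Ptpn11 at chr5:121130533-121191397, all on the minus strand, and Inpp5d at chr1:87620312-87720507 on the plus strand. All 6 are annotated as protein-coding, and reads were counted over their exons.

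The paralogs are close in sequence, and this sets how well their reads can be told apart. Their coding transcripts share an identical run of 241 bases, and 11.7% of the distinct 100-base windows of Lilrb4a also occur in Lilr4b. The study's PCR primers for Lilrb4a show the difference on a small scale, with the bases of Lilr4b that differ from the primer in capitals.
Lilrb4a forward primer: ctggatgctgttactcccaacc
closest Lilr4b stretch: ctggatgctgttGctcccaacc
Lilrb4a reverse primer: tgggtgtagaggactggtcctt
closest Lilr4b stretch: tgggtgtaCaggactgTtcctt
The forward primer matched a Lilrb4a transcript with 0 mismatches and Lilr4b with 1. The reverse primer matched with 0 and 2 mismatches. Neither primer was used to make the RNA-seq values.

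A further gene model overlaps both paralogs. In GENCODE M21 the gene Gm49339 (chr10:51480612-51496613, plus strand) joins 122 exonic bases of Lilr4b to exons of Lilrb4a, and 35.3% of the exonic bases of Lilrb4a are exonic in Gm49339 as well. Of the 100-base windows of coding Lilrb4a transcripts, 87.3% occur in Gm49339. On the opposite strand the antisense gene Gm40645 covers 2.51% of the exonic bases of Lilrb4a. The release that the study counted with is not given in the sources used here, and neither name is among the 29659 genes measured. Where 2 annotated genes share an exon, featureCounts leaves the read unassigned by default, and the counting ignored strand. How far this lowered the values of Lilrb4a was not tested.

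**Figure D1:**
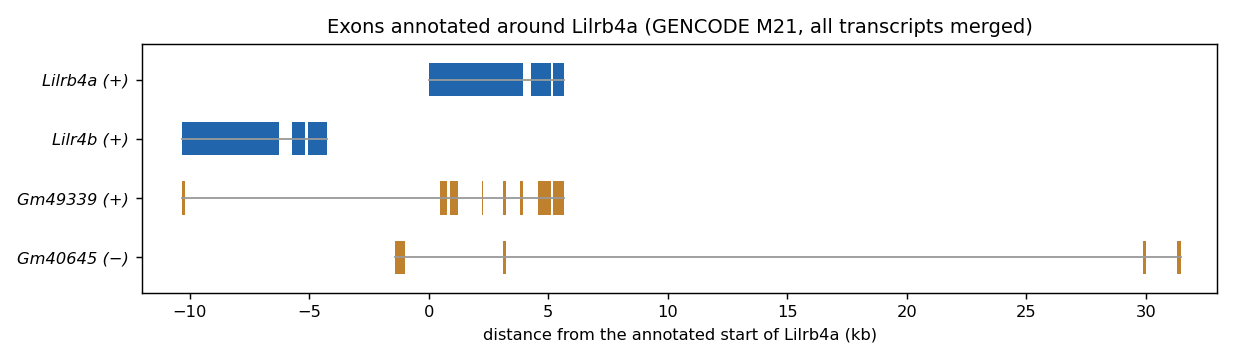
Exons around Lilrb4a in GENCODE M21, with the distance from the annotated start of Lilrb4a in kb on the x axis and 1 row for each gene (filled blocks: exons of all transcripts merged; grey line: gene span; blue: Lilrb4a and Lilr4b; brown: overlapping models). Gm49339 runs from the start of Lilr4b to the end of Lilrb4a, and its exons cover 35.3% of the exonic bases of Lilrb4a.

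The deposited values are on a log2 scale and are not counts, so the counts behind each value are unknown. The study's methods describe RNA-seq of 5EL and 5ELKO only. Whether EL and ELKO were prepared and sequenced together with them is not given in the sources used here. Such a difference could not be told apart from 5xFAD. The study's supplement gives total reads and RNA integrity for 5EL and 5ELKO libraries, but not for EL and ELKO. Its lowest RNA integrity values are from 5ELKO libraries, and the part of RNA quality in the results was not tested. The supplement lists more 5ELKO libraries than the 4 analysed here and does not say which of them these are. Its lowest value may thus belong to a library not analysed. Genes were tested when they reached 3.32 (the log2 of 10) in enough libraries. Ptpn6, Ptpn11 and Inpp5d passed in 15 of 15 libraries. Lilrb4a, Lilr4b and Pirb passed in 0, and their differences were read from a fit over all 29659 genes. Low values were drawn together: the median SD within groups was 0.00372 for genes with a mean below 0, 0.0428 between 2 and 3, and 0.109 between 5 and 7. The transform is not named, and how far it shrank the differences of the receptor genes was not tested.

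Some libraries stood apart. Mouse Apoe was 10.9 in ELKO replicate 1 and at most 6.37 in the other 14 libraries, although the label names an APOE4 knock-in genotype for that library too. Choroid plexus genes averaged 8.45 in ELKO replicate 2 and 8.10 in 5EL replicate 1, against at most 6.35 elsewhere. Albumin reached 8.59 in EL replicate 1 and 8.38 in 5ELKO replicate 3. Its group means were 7.95 in 5ELKO, 6.75 in EL, 6.09 in 5EL and 5.91 in ELKO. Globin genes were highest in EL replicates 2 and 3. The thalamus list (16 of 16 genes tested) averaged between 11.83 and 12.11 in every library. Microglial genes were present (17 of 17 homeostatic genes tested). Of 12 monocyte and neutrophil genes and 12 lymphocyte genes measured, 0 passed the filter, and their highest values were 2.28 and 1.99.

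Lilrb4a itself was examined first, because it checks the labels. In 5EL, the 5 libraries gave 2.662, 2.398, 2.479, 2.628 and 2.476. In EL they gave 2.345, 2.422 and 2.383. The 4 libraries of 5ELKO gave 2.331, 2.330, 2.327 and 2.328, and the 3 of ELKO gave 2.326, 2.330 and 2.331. All 7 libraries labelled as lacking Lilrb4a lay below all 8 libraries with the gene. No other of the 29659 genes was lower in all 7 than in all 8 (0.00337% of genes, Lilrb4a itself). The 7 lay within 0.00507 of each other, whereas the 5EL libraries had an SD of 0.112. The labels and the values of the deleted gene matched in 15 of 15 libraries.

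Lilrb4a differed by 0.20 between 5ELKO and 5EL, with a mean of 2.33 ± 0.002 (SD, n = 4) against 2.53 ± 0.112 (SD, n = 5). The limma fit gave a difference of -0.20 (SE 0.052, 95% interval -0.32 to -0.08, nominal p = 0.00389, adjusted p = 0.945), and the exact permutation test gave p = 0.0159. The groups did not overlap, as for 0.428% of all genes in this direction, and 1.33% of all genes had a nominal p under 0.05 in this direction. The highest library, 5EL replicate 1, was also the 5EL library with high choroid plexus genes; without it the difference was -0.17. Hepatocyte genes moved with the same contrast: 15 of 17 tested were higher in 5ELKO at a nominal p under 0.05, with list means from 5.18 to 5.53 in 5ELKO and from 4.87 to 5.31 in 5EL. All 6 perivascular macrophage genes tested were lower in 5ELKO, 3 of them at a nominal p under 0.05, with list means from 5.36 to 5.55 against 5.48 to 5.80 in 5EL. Of all genes tested in this contrast, 1.53% were higher and 0.959% lower at a nominal p under 0.05. The part of these lists in the result was not tested.

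Without 5xFAD, the deletion was seen at a lower starting level. ELKO and EL did not overlap (2.61% of all genes did not, in this direction). The difference was -0.05 (SE 0.054, nominal p = 0.333 in limma), and the exact permutation p was 0.1, the smallest that 3 against 3 libraries allow. This SE draws on all 15 libraries, so the wider spread of 5EL (SD 0.112) enters it. Leaving out 1 library at a time gave values from -0.074 (without EL replicate 1) to -0.035 (without EL replicate 2). Erythroid genes were also lower in ELKO, with list means of 4.87 against 5.99 and no overlap, and their part in the result was not tested. The deletion effect averaged over both backgrounds was -0.13 (SE 0.0349, nominal p = 0.00279, adjusted p = 0.961), with an exact permutation p of 0.00198 when labels were permuted within each background. The interaction, the deletion effect with 5xFAD minus that without, was -0.15 (SE 0.0699, 95% interval -0.30 to 0.01, adjusted p = 0.977, limma). Lilrb4a averaged 2.33 in both groups without the gene. Its interaction thus restates the difference between 5EL and EL with the sign changed, and is not a separate result.

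Among mice with an intact gene, Lilrb4a was higher on average with 5xFAD. The 5EL mean exceeded the EL mean by 0.15 (SE 0.0483, 95% interval 0.04 to 0.25, adjusted p = 0.758, limma), which is a ratio of 1.11 on this scale. That SE and interval draw on all 15 libraries, 7 of which lack the gene. The SDs of Lilrb4a were 0.00193 in 5ELKO and 0.0026 in ELKO, against 0.112 in 5EL and 0.0388 in EL. The interval is thus not that of 5EL and EL alone, whereas the exact permutation test uses only these 2 groups. Of the 5 libraries in 5EL, 2.398 lay inside the EL range of 2.345 to 2.422, and the exact permutation test gave p = 0.0893. Without 4 of the libraries that stood apart (5EL replicate 1, EL replicate 1 and ELKO replicates 1 and 2) the difference was 0.09 (SE 0.0522). Relative to the mean of the homeostatic microglia list described further on, Lilrb4a differed by -0.04 in 5EL against EL (exact permutation p = 0.411). Values as low as those of Lilrb4a are drawn together, and those of the list less so. The relative value therefore cannot say whether Lilrb4a followed the list. In this contrast 6 of 17 homeostatic and 11 of 15 disease-associated microglia genes were higher at a nominal p under 0.05 in limma. At the same threshold 6 of 16 thalamus genes were lower (median -0.15), and 2 of 3 erythroid genes were lower (list means 5.12 against 5.99). Of all 15804 genes tested, 604 were higher and 613 lower. The part of these lists in any 5EL against EL result was not tested. In 5ELKO against ELKO the means of Lilrb4a were equal at 2.33. The order of the groups was thus 5EL above EL above both groups without the gene, and 5EL and EL overlapped.

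**Figure D2:**
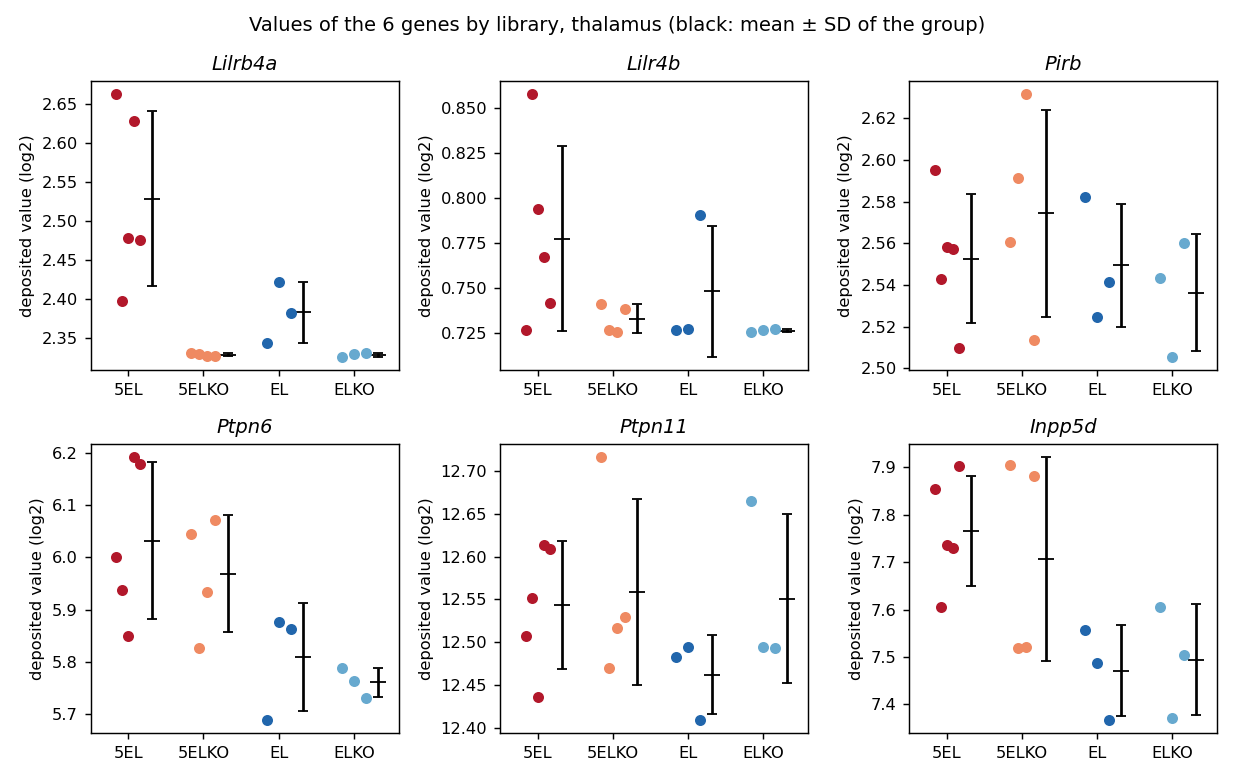
Deposited log2 values (y axis, a separate range in each panel that does not start at 0) of the 6 genes in each library, by genotype (x axis), with the group mean and SD in black. Lilrb4a lies between 2.326 and 2.331 in the 7 libraries without the gene and between 2.345 and 2.662 in the others, while Ptpn6 and Inpp5d are higher on average in 5EL and 5ELKO than in EL and ELKO.

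Lilr4b, which encodes a receptor resembling Lilrb4a outside the cell but lacking its inhibitory tail, was near the bottom of the scale. The 5EL libraries gave 0.727, 0.857, 0.794, 0.767 and 0.742, and the 5ELKO libraries gave 0.741, 0.727, 0.726 and 0.739. The EL libraries gave 0.727, 0.727 and 0.790, and the ELKO libraries 0.726, 0.727 and 0.727. A total of 8 libraries lay within 0.01 of the lowest value, and they came from all 4 groups. The groups overlapped in every comparison. The deletion effect over both backgrounds was -0.03 (SE 0.0172, nominal p = 0.0756, adjusted p = 0.961, limma; exact permutation p = 0.046), and the 5xFAD effect was 0.02 (SE 0.0172).

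Pirb, which binds MHC class I and myelin inhibitors of axon growth, differed little between genotypes. Values were 2.595, 2.543, 2.558, 2.557 and 2.510 in 5EL, and 2.561, 2.592, 2.632 and 2.514 in 5ELKO. They were 2.582, 2.525 and 2.541 in EL, and 2.543, 2.505 and 2.560 in ELKO. The lowest of the 15 libraries was 2.505 and the highest 2.632, and the groups overlapped in every comparison. The 95% intervals of its 5xFAD effect (-0.02 to 0.07) and of its deletion effect (-0.04 to 0.05) bounded any difference on this shrunken scale. In GENCODE M21, 24.6% of the 100-base windows of Pirb occur in other genes, Pira2 and Lilra6 among them, so its reads are uncertain too. Of the 16 family genes listed, 5 were measured. The remaining members of the family, Lilra5 and Lilra6, had group means from 2.43 to 2.48 and at -2.27, and 0 of the 5 passed the filter.

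The phosphatase genes were well above the receptor genes. Per kb of annotated exon, the mean log2 level was 9.63 for Ptpn11, 4.71 for Inpp5d and 4.43 for Ptpn6, and the receptor genes lay lower. Lilrb4a read 2.33 where the gene was deleted, so most of its value is a floor. Lilr4b did not go below 0.726, and 8 libraries lay within 0.01 of that value. For Pirb no floor is known, so no order among the receptor genes is given. Without correction for length, Ptpn11 exceeded 98.3% of all genes, Inpp5d 66.8% and Ptpn6 57.9%, and 0 of their 100-base windows occurred in another gene.

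Ptpn6 encodes SHP-1, the main phosphatase of ITIM receptors in myeloid cells. In 5EL it measured 6.001, 5.938, 5.850, 6.192 and 6.178, and in 5ELKO 6.04, 5.83, 5.93 and 6.07. In EL it measured 5.69, 5.88 and 5.86, and in ELKO 5.79, 5.76 and 5.73. All 4 libraries of 5ELKO lay above all 3 of ELKO (1.78% of genes tested did, in this direction). In 5EL, 4 of 5 libraries lay above all 3 of EL, and 5EL replicate 3 lay within the EL range.

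The 5xFAD difference of Ptpn6 was of like size with and without Lilrb4a. It was 0.22 (SE 0.0827, adjusted p = 0.63) in 5EL against EL and 0.21 (SE 0.0865, adjusted p = 0.999) in 5ELKO against ELKO by limma. With the replicate block the first was 0.14 (SE 0.076). Exact permutation gave p = 0.0893 and 0.0571. Averaged over both, the difference was 0.22 (SE 0.0599, 95% interval 0.09 to 0.34, nominal p = 0.00257, adjusted p = 0.693), with an exact permutation p of 0.0051. Of the genes tested, 3.56% were higher with 5xFAD at a nominal p under 0.05. By p, Ptpn6 stood at rank 39 of 15804, the top 0.247%. Its nominal p of 0.00257 gives about this share where no gene differs, so the rank does not set Ptpn6 apart. The interaction was -0.01 (95% interval -0.27 to 0.24). In bulk tissue, fewer cells of a type and less RNA per cell cannot be told apart, so these values do not say in which cells Ptpn6 differed.

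Inpp5d encodes SHIP1, and the human gene lies at a risk locus for Alzheimer's disease. In 5EL it measured 7.85, 7.61, 7.74, 7.73 and 7.90, and in 5ELKO 7.90, 7.52, 7.52 and 7.88. In EL it measured 7.56, 7.49 and 7.37, and in ELKO 7.605, 7.372 and 7.505. All 5 libraries of 5EL lay above all 3 of EL (1.68% of genes tested did, in this direction). In 5ELKO the libraries fell into a high pair and a low pair, and the low pair lay within the ELKO range.

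The 5xFAD difference of Inpp5d was 0.29 in 5EL against EL (SE 0.101, 95% interval 0.08 to 0.51, adjusted p = 0.63, limma), a ratio of 1.23. The exact permutation p of 0.0179 is the smallest that 5 against 3 libraries allow. It alone of the 6 genes met the looser rule of the study (unadjusted p below 0.05 and more than 1.2-fold), as did 1.53% of genes tested in this direction. In 5ELKO against ELKO the difference was 0.21 (SE 0.106, exact permutation p = 0.229), and leaving out 1 library at a time gave values from 0.146 (without 5ELKO replicate 1) to 0.275 (without 5ELKO replicate 2). Without the libraries high in choroid plexus genes it was 0.15, and with the microglia list as a covariate 0.08. Averaged over both, it was 0.25 (SE 0.0732, 95% interval 0.10 to 0.41, nominal p = 0.00345, adjusted p = 0.693), a ratio of 1.19, with an exact permutation p of 0.00918. The interaction was -0.08 (95% interval -0.40 to 0.23).

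Ptpn11, which encodes the ubiquitous SHP-2, showed no detectable difference between genotypes. It measured 12.51, 12.55, 12.44, 12.61 and 12.61 in 5EL, and 12.72, 12.47, 12.52 and 12.53 in 5ELKO. It measured 12.48, 12.49 and 12.41 in EL, and 12.66, 12.49 and 12.49 in ELKO. The groups overlapped in every comparison. The 5xFAD effect was 0.045 (SE 0.046, 95% interval -0.05 to 0.14, exact permutation p = 0.349) and the deletion effect 0.05 (95% interval -0.05 to 0.15).

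Loss of Lilrb4a was not accompanied by a detectable difference in the phosphatase genes. Between 5ELKO and 5EL, Ptpn6 differed by -0.06 (95% interval -0.24 to 0.11, exact permutation p = 0.508), Inpp5d by -0.06 (-0.27 to 0.15, exact permutation p = 0.595) and Ptpn11 by 0.015 (-0.11 to 0.14, exact permutation p = 0.825). Between ELKO and EL, the differences were -0.05, 0.02 and 0.09 in the same order, and that of Inpp5d was -0.03 without ELKO replicate 1. These intervals leave room for differences of up to about the study's fold threshold of 0.263 in log2.

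Over the whole set, 0 of 6 genes passed an adjusted p of 0.05 in any of the 7 limma comparisons. In these main fits, the share of genes tested that passed was 0.0191% in 5ELKO against 5EL and 0% in the other 6. When 4 libraries that stood apart were left out, it rose above 0% in 5EL against EL and in the pooled 5xFAD effect. ELKO replicate 3 was then alone in its group, so no count is given. At a nominal p under 0.05 the count was 1 of 6 in 5ELKO against 5EL (3.07% of all genes), 0 in ELKO against EL (3.09%), 3 in 5EL against EL (5.74%), and 1 in 5ELKO against ELKO (3.15%). It was 2 in the pooled 5xFAD effect (5.27% of all genes), 1 in the pooled deletion effect (2.55%) and 0 in the interaction (3.25%). Comparisons that share a group, such as 5ELKO against 5EL and 5EL against EL, are not independent of each other.

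**Figure D3:**
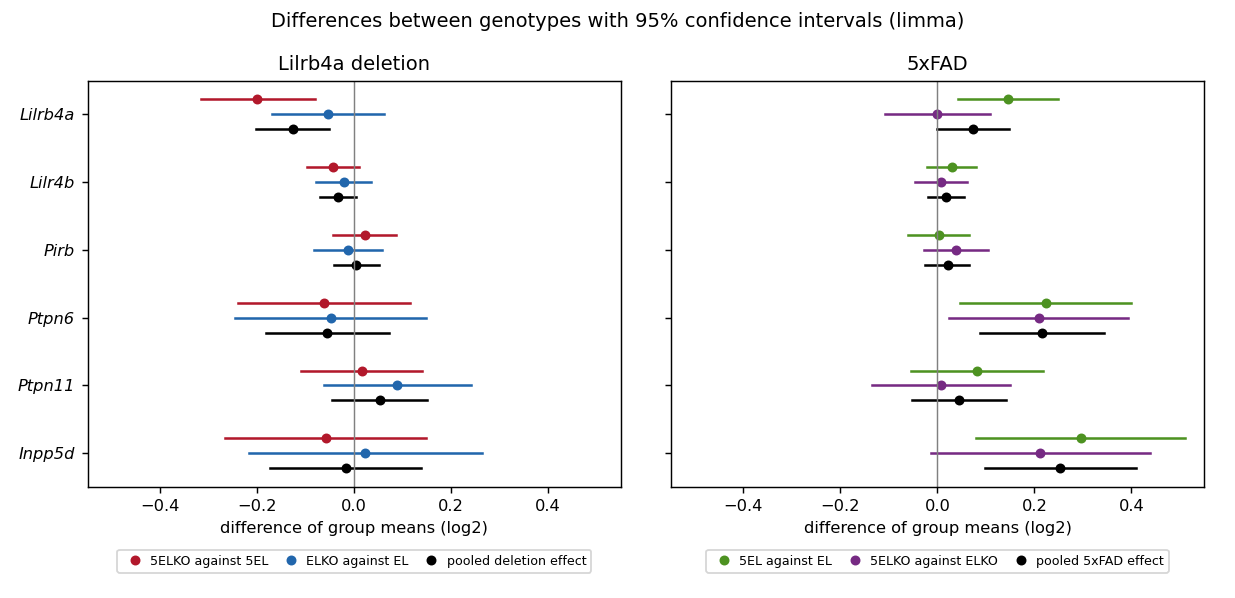
Differences of group means in log2 (x axis) for each of the 6 genes (y axis), as points with 95% confidence intervals from limma, for the Lilrb4a deletion (left) and for 5xFAD (right). The intervals of Lilrb4a in 5ELKO against 5EL and of Ptpn6 and Inpp5d in the pooled 5xFAD effect lie away from 0, and those of Ptpn11 and Pirb include 0 throughout.

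Microglial genes moved with 5xFAD as well. In the pooled 5xFAD effect, 10 of 17 homeostatic and 12 of 15 disease-associated microglia genes tested were higher at a nominal p under 0.05. In both lists 0 were lower, and of all genes tested 3.56% were higher. Median differences were 0.20 and 0.27 against 0.00 over all genes tested. The homeostatic list averaged from 8.54 to 8.80 in 5EL, from 8.46 to 8.87 in 5ELKO, from 8.44 to 8.57 in EL and from 8.41 to 8.57 in ELKO. The disease-associated list averaged from 6.84 to 7.25 in 5EL, from 6.78 to 7.30 in 5ELKO, from 6.70 to 6.77 in EL and from 6.76 to 6.87 in ELKO. Cst7, a protease inhibitor of plaque-associated microglia, differed by 0.90 (exact permutation p = 0.00357, adjusted p = 0.653), and Csf1r, the receptor on which microglia depend, by 0.23 (exact permutation p = 0.00714, adjusted p = 0.693).

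Set against these genes, the 5xFAD differences of Ptpn6 and Inpp5d were within the spread between libraries. Relative to the mean of the homeostatic list, the pooled 5xFAD difference was 0.04 for Ptpn6 (exact permutation p = 0.436) and 0.08 for Inpp5d (exact permutation p = 0.187). With the list mean as a covariate in limma, it was 0.105 for Ptpn6 (SE 0.063) and 0.113 for Inpp5d (SE 0.0753). Lilrb4a relative to the list was lower in 5ELKO than in 5EL by 0.17 (exact permutation p = 0.0952). In 5ELKO this relative value had an SD of 0.193, as had the list, against 0.00193 for Lilrb4a alone. The spread is thus that of the list, and the relative value cannot say whether Lilrb4a followed it. With the list as a covariate the limma difference of Lilrb4a was -0.19.

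**Figure D4:**
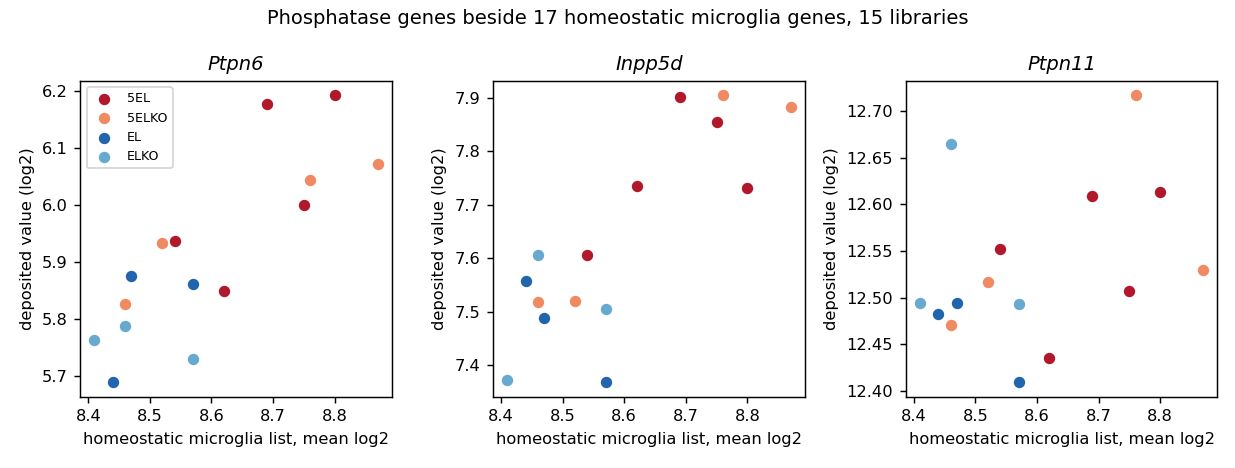
Deposited log2 value of Ptpn6, Inpp5d and Ptpn11 (y axes, each with its own range) against the mean log2 value of 17 homeostatic microglia genes (x axis) in the 15 libraries, coloured by genotype. Ptpn6 and Inpp5d climb with the list (Pearson r of 0.816 and 0.819), whereas Ptpn11 follows it less closely (0.353).

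The genes whose levels ran most alike separated the set in the same way. For Ptpn6 the highest Pearson r over the 15 libraries were with Gpnmb (0.892), Mpeg1 (0.88) and Clec7a (0.879), and for Inpp5d they included Cst7 (0.935) and Serpina3n (0.927). Among the 100 genes most like each, 21 of the 32 microglial list genes appeared for Ptpn6 and 16 for Inpp5d, against 4 for Lilrb4a and 0 for Ptpn11, Pirb and Lilr4b. For Lilrb4a the closest were Alg13 (0.783), Cxcl16 (0.771) and Rhbdf1 (0.761), for Ptpn11 Sbf2 (0.882), Klf13 (0.879) and Kcnh3 (0.873). For Lilr4b they were Brdt (0.826), Metap1d (0.815) and Whamm (0.784), and for Pirb Celf3 (0.757), Gm16565 (0.738) and Catsperd (0.731). The libraries share genotype and tissue makeup, so these are descriptions. In the 6 libraries without 5xFAD, r with the homeostatic list was 0.255 for Ptpn6 and -0.183 for Inpp5d, against 0.75 and 0.849 in the 9 with it.

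Of 79 genes tested that act around the receptor, in 7 lists, 13 were higher and 1 lower with 5xFAD at a nominal p under 0.05, against 3.56% higher over all genes tested. In the pooled 5xFAD effect, 0 genes of any list below passed an adjusted p of 0.05 in limma, and the counts that follow are at a nominal p under 0.05. Of 12 ligand genes described for LILRB4 or PirB, 3 were higher and 0 lower, with a median difference of 0.03. H2-K1 and H2-D1, which encode MHC class I chains, and Alcam differed by 0.15, 0.16 and 0.34. Their exact permutation p were 0.0179, 0.0515 and 0.052, and Alcam had an SD of 0.694 in EL against 0.144 in 5EL. Fn1, which encodes fibronectin, a ligand of LILRB4, had means of 10.05, 10.09, 9.84 and 10.02 in 5EL, 5ELKO, EL and ELKO. Of the neuronal and myelin ligands of PirB, Rtn4 differed by -0.04, Mag by -0.02 and Omg by -0.06. Mouse Apoe, a ligand too, differed by -0.71 (SE 0.548), with ELKO replicate 1 at 10.9.

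Other receptors and enzymes of the pathway are read against the same 3.56%. Of 11 other inhibitory receptors tested, most of them with ITIMs, 2 were higher: the inhibitory Fc receptor Fcgr2b by 0.34 (exact permutation p = 0.0122) and Lag3, which lacks a classical ITIM, by 0.26 (exact permutation p = 0.0112), both with an adjusted p of 0.693 in limma. Of 7 Src family kinase genes with Csk, 1 was higher, Csk, which restrains these kinases, by 0.17 (exact permutation p = 0.00357), while Lyn, which phosphorylates ITIMs in myeloid cells, differed by 0.05 (exact permutation p = 0.417). Of 12 adaptors of SHP-2 and SHIP1, 2 were higher, Gab1 by 0.13 and Frs2 by 0.09 (exact permutation p = 0.0265 and 0.0291). Of 13 other phosphatases, Ptprc, which encodes CD45, was higher by 0.21 and Inpp4b lower by 0.12 (exact permutation p = 0.0469 and 0.0582). Of 14 genes of the Syk pathway, which the phosphatases oppose, 2 were higher, Btk by 0.08 and Plcg2 by 0.14 (exact permutation p = 0.0148 and 0.052). Of 10 other signalling genes, 2 were higher, Tgfb1 by 0.18 and Stat3 by 0.13 (exact permutation p = 0.0306 and 0.0281).

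The same lists gave few differences in 5ELKO against 5EL. Of these 7 lists, 79 genes were tested, 4 (Gab1, Inppl1, Arg1 and Cyp2e1) were higher at a nominal p under 0.05 and 0 lower, with 0 at an adjusted p under 0.05 in limma. Arg1 and Cyp2e1 are also hepatocyte genes, and they were named here after their values were seen. Of all genes tested, 1.53% were higher and 0.959% lower. The microglial lists had 0 of 32 genes past a nominal p of 0.05 in either direction.

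**Figure D5:**
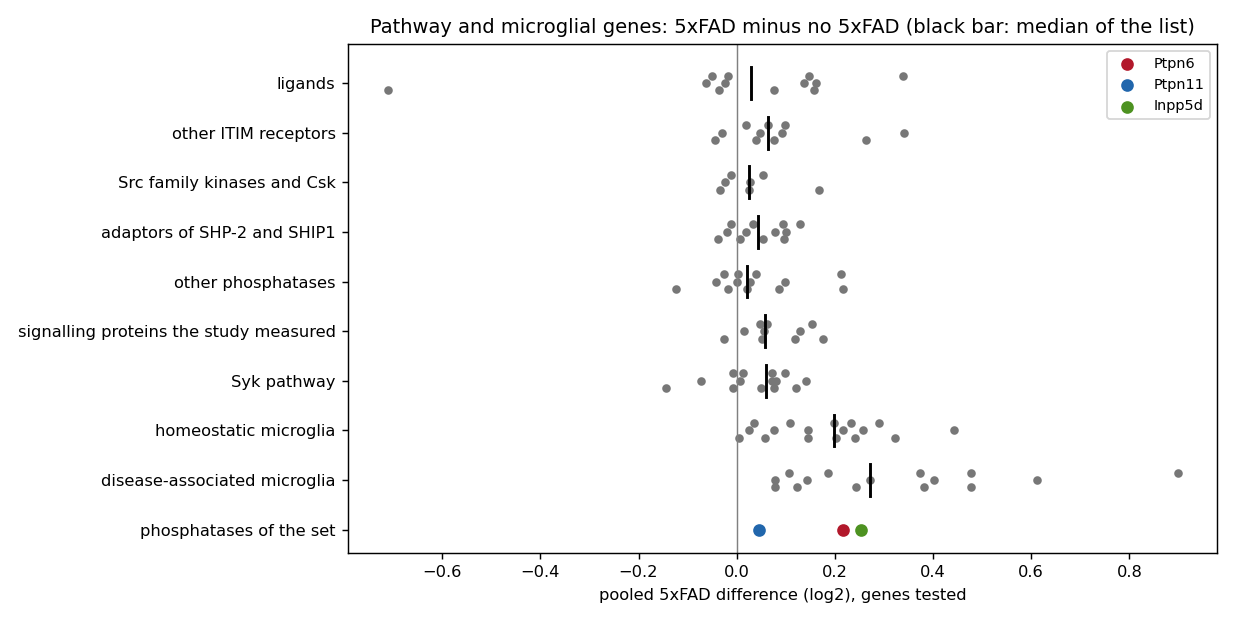
Pooled 5xFAD difference in log2 (x axis) of every gene tested in 9 lists (y axis; grey points: genes; black bars: list medians), with Ptpn6, Ptpn11 and Inpp5d in the bottom row. Ptpn6 (0.22) and Inpp5d (0.25) lie among the microglial genes, whose medians are 0.20 and 0.27, and Ptpn11 (0.045) lies among the pathway lists. The point at -0.71 in the ligand row is Apoe, and the black bars of the 7 pathway lists lie between 0.02 and 0.06.

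The promoters of the genes that ran with microglial genes are shown because PU.1, a transcription factor of microglia and other myeloid cells, binds purine-rich sites such as GAGGAA. RefSeq promoters of 300 bases (250 before to 50 after the start, GRCm38.p6) were found for 5 of the 6 genes, and both strands were searched for GAGGAA and its complement TTCCTC, shown in capitals.
Inpp5d, chr1:87620062-87620361, plus strand: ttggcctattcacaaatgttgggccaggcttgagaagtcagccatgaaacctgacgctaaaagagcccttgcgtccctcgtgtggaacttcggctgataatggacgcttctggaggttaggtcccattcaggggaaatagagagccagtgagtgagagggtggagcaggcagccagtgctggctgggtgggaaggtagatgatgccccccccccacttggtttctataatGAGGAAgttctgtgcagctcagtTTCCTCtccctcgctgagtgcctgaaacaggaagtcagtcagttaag
Ptpn6, chr6:124738660-124738959, minus strand: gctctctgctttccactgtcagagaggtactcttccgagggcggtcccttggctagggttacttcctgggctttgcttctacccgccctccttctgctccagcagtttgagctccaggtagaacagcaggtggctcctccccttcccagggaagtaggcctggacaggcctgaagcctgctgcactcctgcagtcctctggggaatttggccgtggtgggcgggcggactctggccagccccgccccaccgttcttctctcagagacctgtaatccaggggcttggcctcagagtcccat
Inpp5d had 2 matches and Ptpn6 had 0. Pirb had 3, Ptpn11 had 1 and Lilr4b had 0. Of 32851 promoters of this length, 28.3% held at least 1 match, 4.82% at least 2 and 0.685% at least 3. A match is a stretch of letters and not a measured site, and other forms of PU.1 sites were not searched.

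The neighbourhood of the deleted gene was also examined. Of 12 other genes measured within 1 Mb of Lilrb4a, 5 were tested. In limma 0 of the 5 had an adjusted p or a nominal p under 0.05 in any of the 4 comparisons of group pairs.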

How the data were processed

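RNA-seq measured 15 thalamus libraries. Per the study's methods, the authors trimmed reads with Trimmomatic 0.39 after FastQC 0.11.9, aligned them to GRCm38 with HISAT2 2.2.1, used SAMtools 1.16.1, counted read pairs over exons by gene name without strand with featureCounts 2.0.3 and processed counts with DESeq2 1.38.3. The deposited values are on a log2 scale, and the authors name no transform for them. They are not counts, so depth and counting error are unknown and count tests were not used. Replicates were deposited separately, and of 105 library pairs 0 were identical. Groups came from the sample labels.

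Differences were fitted on the log2 values with limma 3.58.1 (R 4.3.3; lmFit, eBayes with trend), with Benjamini-Hochberg adjustment over all genes in the fit and a call at an adjusted p under 0.05. The comparison of 5ELKO with 5EL used 9 libraries (15743 genes at or above 3.32 in at least 4 libraries), and the others used all 15 (15804 genes, at least 3 libraries). Genes below this level were read from the same fit over all 29659 genes. Pooled effects average both backgrounds. Single values were tested by exact two-sided permutation, for pooled effects within strata (1960 or 2520 regroupings). On simulated data with a log2 shift of 0.5 in 200 genes, limma recovered 171 for 5ELKO against 5EL over 15743 genes. It recovered 189 for the pooled 5xFAD effect over 15804 genes, with 7 false calls each. In the main fits, the largest difference among the receptor and phosphatase genes of the set was 0.295 (Inpp5d, 5EL against EL). Lilrb4a, Lilr4b and Pirb lay below the filter and outside these genes. The recovery thus does not say how often differences as small as those seen would be called.

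The genes and lists were chosen with earlier results of these data known. Named genes are the 6 members, all measured family and ligand genes, the 3 genes most correlated with each member, and up to 4 genes a list with the smallest p in the pooled 5xFAD effect. Positions and exons are from GENCODE M21, which holds 28214 of the 29659 gene names (95.1%), promoters are from RefSeq, and the primers are from the study's supplement. Deviations from the group means correlated between EL and ELKO libraries of the same number (r of 0.453, 0.325 and 0.742) but not in each pair of 5EL and 5ELKO (-0.067, -0.244, -0.026 and 0.143). A second microglial reference and 1 gene the rule names are not reported here. Alternatives were no or a stricter filter, no trend, a robust fit, recentred libraries, the replicate block, covariates, leaving out libraries, and other libraries in the fit. Figures were drawn with matplotlib 3.10.9.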

Additional observations from a re-analysis of the deposited data

How the results depend on the processing

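The count of genes called was 0 of 6 in all 7 comparisons under all 174 alternatives, and over 1044 alternatives for single genes 0 were called (lowest adjusted p 0.116, limma). The counts behind the values are unknown, values below about 3 are drawn together, and 3 or 4 libraries a group limit the precision. With the replicate block, Lilrb4a differed by -0.05 in ELKO against EL and by -0.21 in 5ELKO against 5EL, and the pooled 5xFAD effect was 0.147 for Ptpn6 and 0.21 for Inpp5d. The pairing changed no call. A further alternative left out 4 of the libraries that stood apart, chosen after seeing the data. The 5ELKO libraries high in albumin and the EL libraries high in globin genes were kept. ELKO replicate 3 was then alone in its group, so only sizes are given. The pooled 5xFAD effect was 0.20 for Ptpn6 and 0.26 for Inpp5d, and the pooled deletion effect of Lilrb4a was -0.12.

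Signs turned for 47 values near 0, of genes with a nominal p above 0.05, and the cause was not tested. With recentred libraries, Pirb was -0.01 in 5EL against EL and -0.002 in the pooled deletion effect, Lilrb4a 0.007 in 5ELKO against ELKO, and the Ptpn6 interaction 0.006. With the replicate block, Ptpn11 was -0.002 in 5ELKO against ELKO, the Ptpn6 interaction 0.023 and Pirb -0.001 in the pooled deletion effect. With a covariate, Ptpn11 was -0.026 in 5ELKO against ELKO (microglia list) and Pirb -0.001 in the pooled deletion effect (Xist). Without the choroid-high libraries, Pirb was 0.002 in ELKO against EL and -0.007 in 5EL against EL, Lilrb4a 0 and Ptpn11 -0.021 in 5ELKO against ELKO, and Inpp5d 0.023 in the pooled deletion effect. Without 4 libraries, Pirb was 0.027 in ELKO against EL, the Ptpn6 interaction 0.068 and Inpp5d 0.02 in the pooled deletion effect. Leaving out 1 library at a time gave ranges of -0.037 to 0.045 for Ptpn11 and -0.125 to 0.003 for Inpp5d in 5ELKO against 5EL, of -0.025 to 0.003 for Pirb and -0.032 to 0.084 for Inpp5d in ELKO against EL, and of -0.009 to 0.02 for Pirb in 5EL against EL. In 5ELKO against ELKO they were -0.002 to 0.001 for Lilrb4a and -0.045 to 0.065 for Ptpn11. They were -0.059 to 0.046 for the Ptpn6 interaction, and -0.051 to 0.013 for Inpp5d and -0.005 to 0.014 for Pirb in the pooled deletion effect.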
